A study of Mus musculus with 2 samples.

Results

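Gzmb-positive cells without T cell receptor genes were taken from 2 Xenium sections of mouse subcutaneous tumours, in which RNA molecules are imaged in place and assigned to segmented cells. A cell was taken when it held 40 or more gene counts, 2 or more counts of Gzmb, no count of Cd3e, Cd3d or Cd8a, under 3 counts of Cpa3, and at most 1 count of Epcam. This gave 606 cells, 453 in the RKP section and 153 in the EKP section, of 516855 cells in all and 397111 cells with 40 or more counts. Gzmb and the absence of the 3 T cell receptor genes chose the cells, so these values are a description and support nothing.

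Both tumours were grown from cultured mouse cell lines of diffuse gastric cancer, named RKP and EKP. C57BL/6 mice aged 5 weeks received 3000000 cells of either line, mixed with Matrigel, subcutaneously on each side, and tumours of like final volume were embedded in paraffin, both in 1 block. The labels give the lines by letters only, the series title names a RHOA mutation without saying which line carries it, and no source used here gives the promoters, alleles or clones behind each line. There was 1 section per line, so no comparison between the sections had a replicate check and none is given a p-value. All intervals below are 95% intervals that cover counting error only, Clopper-Pearson for shares and exact conditional binomial for ratios.

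Granzyme B (Gzmb, ENSMUSG00000015437) is a protease that cytotoxic lymphocytes store in granules and deliver into target cells through pores made by perforin (Prf1, ENSMUSG00000037202). Natural killer (NK) cells and cytotoxic T cells both carry these proteins; T cells are told apart by the CD3 chains of the T cell receptor complex, encoded by Cd3e and Cd3d among others, and NK cells of C57BL/6 mice by receptors such as the Ly49 family, to which Klra8 (Ly49H, an activating receptor) belongs. Mouse mast cells can also make granzyme B. The question was whether the Gzmb-positive cells were NK cells, T cells whose receptor genes were missed, or neighbours of such cells. On the panel of 479 genes, 1 of 27 listed NK genes was measured (Klra8), and none of 31 further T cell genes or of 18 genes shared by NK and T cells. Klra8 belongs to a family of near-identical genes, so its counts are uncertain at the level of the single gene. A class resting on 1 or 2 detected markers is not given a cell type name here.

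The RKP section held 255744 cells with a median of 154 gene counts, and the EKP section 261111 cells with a median of 84. The share of cells with 40 or more counts was 91.9% in RKP and 62.0% in EKP, and all shares below are of these cells, whose median was 165 counts in both sections. Negative control probes gave 15.2 counts per 1000000 gene counts (CPM) in RKP and 24.99 CPM in EKP over these cells. The 2 sections shared 19 barcodes, none of them among the Gzmb-positive cells without T cell receptor genes.

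These cells made up 0.193% of the RKP cells (0.175% to 0.211%) and 0.0944% of the EKP cells (0.0801% to 0.111%). The share was 2.04 times as high in RKP as in EKP (1.69 to 2.47), a log2 ratio of 1.03. With the Gzmb limit at 1 or more counts the log2 ratio was 0.35, below that interval. Gzmb-positive cells that did carry T cell receptor counts, under the same other limits, numbered 1093 in RKP and 375 in EKP and had about the same ratio between sections, 2.01 (1.78 to 2.26). Cells without receptor counts were therefore 29.3% of Gzmb-positive cells in RKP and 29.0% in EKP. Their median total was 150 gene counts in RKP and 174 in EKP, against 133 and 138 in the Gzmb-positive cells with receptor counts. This median pools unlike cells. It was 126 and 123.5 in those with 2 or more Klra8 counts. With 2 or more summed counts of Ctla4 and Pdcd1 it was 106.5 and 85, and of Cpa3 and Cyp11a1 147 and 159. In the cells that met none of these limits it was 166 and 191.5. Whether depth bears on the missing receptor counts was not tested.

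Gzmb itself was low in most of them. It stood at exactly 2 counts, the lowest value the rule admits, in 57.4% of the cells in RKP and 60.1% in EKP, against 29.0% and 31.0% of the Gzmb-positive cells with 2 or more receptor counts. The highest Gzmb count in a cell was 23 in RKP and 15 in EKP. Just inside the Gzmb limit, at 2 counts, were 260 cells in RKP and 92 in EKP, against 1801 and 1065 cells just outside it, at 1 count with none of the receptor genes. At the receptor limit, 221 RKP cells and 62 EKP cells had exactly 1 receptor count. At the Cpa3 limit, 48 cells in RKP and 1 in EKP had 2 counts, and 29 cells in RKP and none in EKP had 3. At the Epcam limit, 105 cells in RKP and 27 in EKP had 1 count, and 35 and 19 cells had 2.

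Perforin was present in a minority. Prf1 was counted in 6.84% of the cells in RKP (3.97% when each cell was thinned to 40 counts) and 16.3% in EKP (11.8% thinned). In the Gzmb-positive cells with receptor counts, the share with Prf1 was 19.1% in RKP (9.15% thinned) and 29.3% in EKP (13.3% thinned). In cells with neither Gzmb nor receptor counts it was 0.261% in RKP (0.103% thinned) and 0.373% in EKP (0.178% thinned). The Gzmb-positive cells without receptor genes thus lay between the other 2 groups for Prf1, at 949 CPM in RKP and 2188 CPM in EKP. The group with receptor counts pools unlike cells. At exactly 1 receptor count Prf1 was at 635 CPM in RKP and 1969 CPM in EKP, and at 6 or more at 6210 CPM and 8594 CPM.

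Counts of 3 pairs or single genes, chosen after the values had been seen, split the cells into kinds. The first kind had 2 or more counts of Klra8. The second had 2 or more summed counts of Cpa3 and Cyp11a1, a mast cell protease gene and a steroid-synthesis gene that is also known from mast cells. The third had 2 or more summed counts of Ctla4 and Pdcd1, which encode the inhibitory receptors CTLA-4 and PD-1 of activated T cells. No RKP cell and 1 EKP cell met more than 1 of these limits.

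The kinds differed between the sections in opposite directions. Klra8 cells numbered 12 in RKP (2.65% of the Gzmb-positive cells without receptor genes) and 26 in EKP (17.0%), a share of all cells 0.318 times as high in RKP as in EKP (0.146 to 0.653). Cpa3/Cyp11a1 cells numbered 81 in RKP (17.9%) and 3 in EKP (1.96%), a ratio of 18.6 (6.14 to 92.1). Ctla4/Pdcd1 cells numbered 54 in RKP (11.9%) and 9 in EKP (5.88%), a ratio of 4.13 (2.02 to 9.52). Klra8 cells were thus rarer in RKP than in EKP, and the other 2 kinds were more frequent in RKP. Klra8 counts were also more frequent in EKP among cells with neither Gzmb nor receptor counts, at 2.34% against 0.564% in RKP. Of all cells with exactly 2 Klra8 counts, 30.8% in EKP and 75.4% in RKP had a count of the leukocyte gene Ptprc. How far this adds to the difference in Klra8 cells was not tested. The remaining cells, which met none of the 3 limits, were the largest group, 306 in RKP (67.6%) and 116 in EKP (75.8%), a ratio of 1.82 (1.46 to 2.27).

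Several of these cells lay near a limit. Klra8 stood at exactly 2 in 4 of the RKP cells and 8 of the EKP cells, and at exactly 1 in another 10 and 3. The sum of Cpa3 and Cyp11a1 stood at exactly 2 in 37 RKP cells and 1 EKP cell, and at 1 in another 55 and 6. The sum of Ctla4 and Pdcd1 stood at exactly 2 in 27 RKP cells and 6 EKP cells, and at 1 in another 38 and 8.

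**Figure D1:**
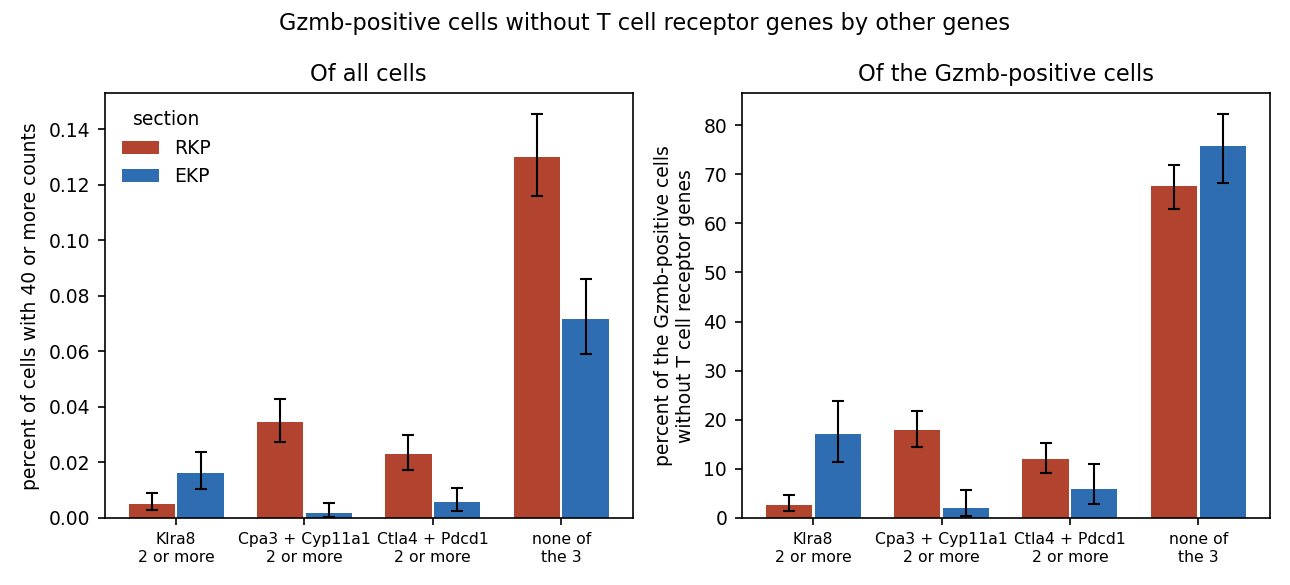
Share of each kind of Gzmb-positive cell without T cell receptor genes, as a percent of all cells with 40 or more counts (left) and of the Gzmb-positive cells themselves (right), in the RKP and EKP sections. Bars are single sections and error bars are 95% Clopper-Pearson intervals. Klra8 cells were 2.65% of these cells in RKP and 17.0% in EKP, and Cpa3/Cyp11a1 cells 17.9% in RKP and 1.96% in EKP.

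Klra8 cells carried perforin at higher levels than the remaining cells. Prf1 was counted in 11 of the 12 Klra8 cells of RKP and in 19 of the 26 of EKP. Their Prf1 level was 25129 CPM in RKP and 15486 CPM in EKP, against 607 CPM and 330 CPM in the remaining cells, ratios of 41.4 (25.5 to 67.6) and 46.9 (22.2 to 114). Of all Prf1-positive cells of the group, 31 in RKP and 25 in EKP, the Klra8 cells held most in EKP but not in RKP, where 19 of the Prf1-positive cells met none of the 3 limits.

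Ptprc, Rac2 and Satb1 were also high in the Klra8 cells. Ptprc, which encodes the leukocyte antigen CD45, was at 35438 CPM in RKP and 28104 CPM in EKP, against 7717 CPM and 5734 CPM in cells with neither Gzmb nor receptor counts, ratios of 4.59 (3.46 to 5.98) and 4.90 (3.98 to 5.97). Rac2, a small GTPase gene of blood cells, was at 20619 CPM in RKP and 27818 CPM in EKP, against 5839 CPM and 3904 CPM in those cells, ratios of 3.53 (2.42 to 4.99) and 7.13 (5.78 to 8.69). Satb1, which encodes a chromatin organiser known from lymphocytes, had 18 counts in the RKP Klra8 cells (11598 CPM, against 205 CPM in cells with neither Gzmb nor receptor counts) and 28 counts in the EKP ones (8030 CPM, against 243 CPM). These 3 genes were higher in the Klra8 cells of both sections. Epsti1, an interferon-responsive gene, was at 16920 CPM in the EKP Klra8 cells against 1937 CPM in EKP cells with neither Gzmb nor receptor counts, and rested on 10 counts in the RKP ones.

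The 4 measured checkpoint genes had few counts in the Klra8 cells. Ctla4 had no count in the 12 RKP cells and 3 counts in the 26 EKP cells. Pdcd1 had 2 counts in RKP and none in EKP, and Lag3, another inhibitory receptor gene, 1 count in each section. Havcr2, which encodes the inhibitory receptor TIM-3, had 2 counts in each section. Summed, the 4 genes were at 3222 CPM in the RKP Klra8 cells and 1721 CPM in the EKP ones, against 1302 CPM and 1227 CPM in cells with neither Gzmb nor receptor counts, and 33543 CPM and 30779 CPM in Gzmb-positive cells with receptor counts. The ratio of the Klra8 cells to the Gzmb-positive cells with receptor counts was 0.185 in RKP (0.00468 to 1.04) and 0.0586 in EKP (0.00148 to 0.329) for Lag3, 0.268 in RKP for Pdcd1 (0.0324 to 0.971) and 0.0616 in EKP for Ctla4 (0.0127 to 0.181). Arg1, a macrophage arginase gene that was abundant in both sections, had 2 counts in the RKP Klra8 cells and 4 in the EKP ones, against 24008 CPM and 11448 CPM in cells with neither Gzmb nor receptor counts.

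A gene was kept in a comparison when the side with the higher level had 20 or more counts. Across all kept genes, the Klra8 cells were at least 2-fold higher than cells with neither Gzmb nor receptor counts for 5 of 347 genes in RKP (1.44%) and for 13 of 385 genes in EKP (3.38%), and at least 2-fold lower for 40 (11.5%) and 48 (12.5%). Klra8, which chose these cells, is among the higher ones. Beside it, the 2-fold higher genes in RKP were Prf1, Ptprc, Rac2 and Laptm5, a lysosomal membrane gene of blood cells. With 12 and 26 cells, genes of low level could not be read in these cells.

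Klra8-positive cells were looked at without the Gzmb limit as well. Cells with 3 or more Klra8 counts numbered 82 in RKP and 128 in EKP, 0.441 times the share in RKP that they had in EKP (0.330 to 0.587). Of these, 47.6% had a Prf1 count in RKP and 41.4% in EKP, and 15.9% and 16.4% had 2 or more Gzmb counts. Ptprc was counted in 97.6% of them in RKP and 72.7% in EKP. Receptor counts were found in 26.8% of them in RKP and 14.1% in EKP, against 5.62% and 3.49% of cells with no Klra8 count. Most of the cells with 3 or more Klra8 counts therefore had under 2 counts of Gzmb and lay outside the Gzmb-positive group.

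The Cpa3/Cyp11a1 cells carried other genes than the Klra8 cells. In RKP, Scin, which encodes the actin-severing protein scinderin, was at 3091 CPM in these cells against 235 CPM in cells with neither Gzmb nor receptor counts, a ratio of 13.1 (9.50 to 17.7). Satb1 was at 1869 CPM against 205 CPM, a ratio of 9.14 (5.96 to 13.4). Ptprc was lower, at 4745 CPM against 7717 CPM, a ratio of 0.615 (0.475 to 0.782), and Rac2 stood at 7261 CPM against 5839 CPM, a ratio of 1.24 (1.01 to 1.51). Prf1 was counted in 1 of the 81 cells. Of the 17 epithelial genes, 2 or more counts were found in 82.7% of these cells (39.5% thinned to 40 counts). In cells with neither Gzmb nor receptor counts the share was 62.0% (25.9% thinned). The 6 measured proliferation genes summed to 39684 CPM against 21776 CPM, the 15 macrophage and monocyte genes to 74335 CPM against 77319 CPM, and the 7 fibroblast genes to 27031 CPM against 59538 CPM. The kept genes at least 2-fold higher in these cells numbered 13 of 364 (3.57%), and those at least 2-fold lower 77 (21.2%). The EKP section had 3 such cells, too few for gene levels.

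These cells lay next to a larger group that the Cpa3 limit had removed. Among all RKP cells with 3 or more Cpa3 counts, 329 of 892 had 2 or more Gzmb counts (36.9%, 33.7% to 40.1%). In EKP none of 56 such cells did, which allows a share of up to 5.36% by a limit of 3 counts and up to 6.38% by the Clopper-Pearson interval. In RKP the share with 2 or more Gzmb counts was 0.858% at no Cpa3 count, 4.83% at 1 count and 18.6% at 2 counts, so it was higher at each step up to the limit. In the RKP cells just inside the Cpa3 limit, at 2 counts, Cyp11a1 was at 4706 CPM, and in those just outside it, at 3 counts, it was at 4583 CPM. Over all 166 RKP cells that only the Cpa3 limit removed, with 3 or more counts, Cyp11a1 was at 13039 CPM and Gzmb at 44258 CPM, against 4706 CPM and 19233 CPM in the cells with 2 Cpa3 counts. In EKP the share with 2 or more Gzmb counts was 0.469% at no Cpa3 count and 0.702% at 1 count. At 2 counts it was 1.14%, which rests on 1 of 88 cells (0.0288% to 6.17%). RKP held 10.98 times the share of cells with 3 or more Cpa3 counts that EKP held (8.37 to 14.6).

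The Ctla4/Pdcd1 cells carried the leukocyte genes at levels between the remaining cells and the Gzmb-positive cells with receptor counts. In RKP, Rac2 was at 16221 CPM in these 54 cells, against 5531 CPM in the remaining cells without receptor genes and 21293 CPM in Gzmb-positive cells with receptor counts. Ptprc followed the same order, with 16376 CPM, 7530 CPM and 21480 CPM. Satb1 was at 3399 CPM in them, against 205 CPM in cells with neither Gzmb nor receptor counts, a ratio of 16.6 (10.4 to 25.2). Prf1 had no count in these cells in RKP, with an upper bound of 569.9 CPM, and was at 2858 CPM in the Gzmb-positive cells with receptor counts. Their median total was 106.5 gene counts in RKP and 85 in the 9 cells of EKP, below the medians of 150 and 174 of the whole group. Of 371 kept genes in RKP, 7 were at least 2-fold higher (1.89%) and 42 at least 2-fold lower (11.3%) than in cells with neither Gzmb nor receptor counts. Among the higher ones was Des, the muscle filament gene desmin (2.82, 1.84 to 4.13).

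**Figure D2:**
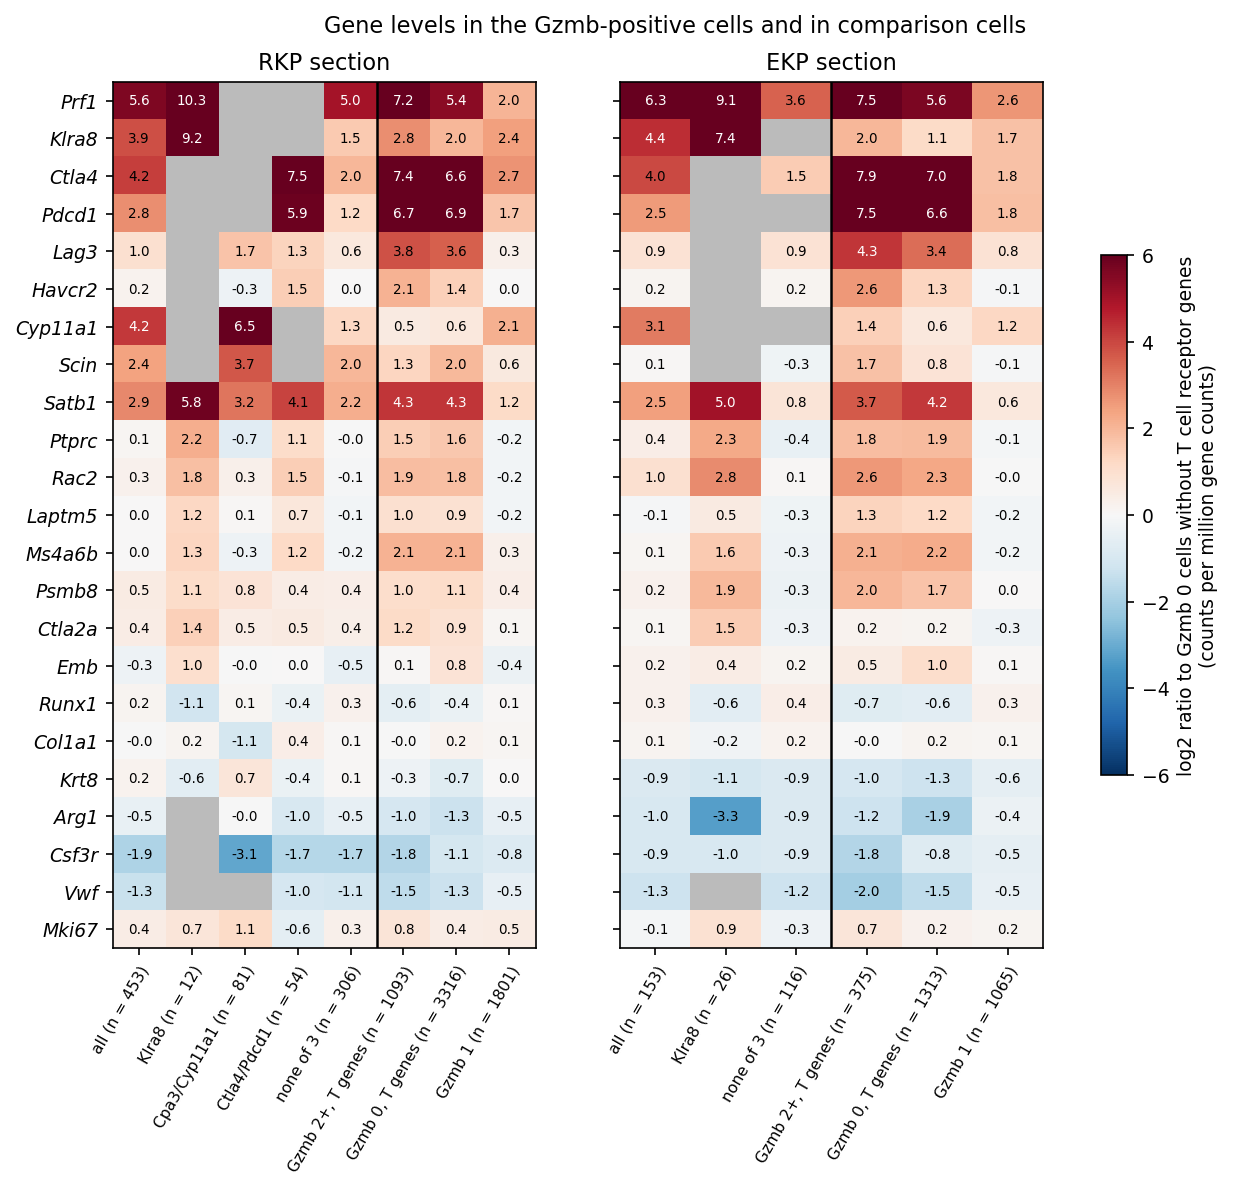
Log2 ratio of the pooled level (CPM) of 23 genes to that in cells with neither Gzmb nor T cell receptor counts, in the RKP (left) and EKP (right) sections. Columns left of the line are the Gzmb-positive cells without T cell receptor genes, all and by kind, and columns right of it are comparison cells. Grey marks 3 or fewer counts, and kinds under 10 cells are left out. In the Klra8 cells Ptprc and Rac2 lie between 1.82 and 2.83, and in the remaining cells between -0.43 and 0.09.

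The share of cells without receptor counts was read in Gzmb-positive cells picked by another gene. Among Gzmb-positive cells with 2 or more Ctla4 counts, 47 of 653 in RKP (7.198%, 5.34% to 9.46%) and 8 of 171 in EKP (4.68%, 2.04% to 9.01%) had no count of Cd3e, Cd3d or Cd8a. Among those with 2 or more Pdcd1 counts the share was 2.15% in RKP and 1.12% in EKP, and with 2 or more Lag3 counts 1.41% and 1.64%. The cells without receptor counts were shallower in the Ctla4 set, with medians of 104 gene counts in RKP and 83.5 in EKP, against 135.5 and 143 in those with receptor counts. Receptor counts were thus missing from a small share of the Gzmb-positive cells that carried checkpoint genes. Ctla4 was higher at 2 receptor counts than at 1 in both sections, so these shares are tied to the choice of cells. Picked by 2 or more Satb1 counts, 12.6% in RKP and 17.3% in EKP had none. Among cells with 2 or more Ctla4 counts and any Gzmb count, 15.1% and 12.8% had none. How often receptor genes go uncounted in T cells at large was not tested.

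The same reading by Klra8 gave the reverse. Among Gzmb-positive cells with 2 or more Klra8 counts, 12 of 22 in RKP (54.5%, 32.2% to 75.6%) and 26 of 32 in EKP (81.3%, 63.6% to 92.8%) had no receptor count. Picked by 2 or more Cyp11a1 counts, 36 of 39 in RKP (92.3%, 79.1% to 98.4%) and both of the 2 in EKP had none. Picked by any Prf1 count, 31 of 240 in RKP (12.9%, 8.95% to 17.8%) and 25 of 135 in EKP (18.5%, 12.4% to 26.1%) had none. The Klra8-picked cells without receptor counts had medians of 126 gene counts in RKP and 123.5 in EKP, against 132 and 148 in those with receptor counts.

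Cells with no receptor count were then set beside cells with 1 or 2. In RKP, Ctla4 was at 2219 CPM in Gzmb-positive cells with no receptor count, 12581 CPM at 1 count and 18170 CPM at 2 counts. In EKP the values were 903 CPM, 10500 CPM and 14846 CPM. Rac2 was at 7027 CPM, 12867 CPM and 16776 CPM in RKP, and at 7639 CPM, 15969 CPM and 18462 CPM in EKP. Both genes were higher at each of these steps in both sections. Median totals were 150, 126 and 110 gene counts over these steps in RKP, and 174, 137 and 94 in EKP. Klra8 ran the other way in EKP, with 4063 CPM at no receptor count, 2734 CPM at 1 and 952 CPM at 2, and stayed between 508 CPM and 705 CPM over these steps in RKP. Prf1 was not higher at 1 or 2 counts than at none. It was at 949 CPM, 635 CPM and 671 CPM in RKP, and at 2188 CPM, 1969 CPM and 1903 CPM in EKP.

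**Figure D3:**
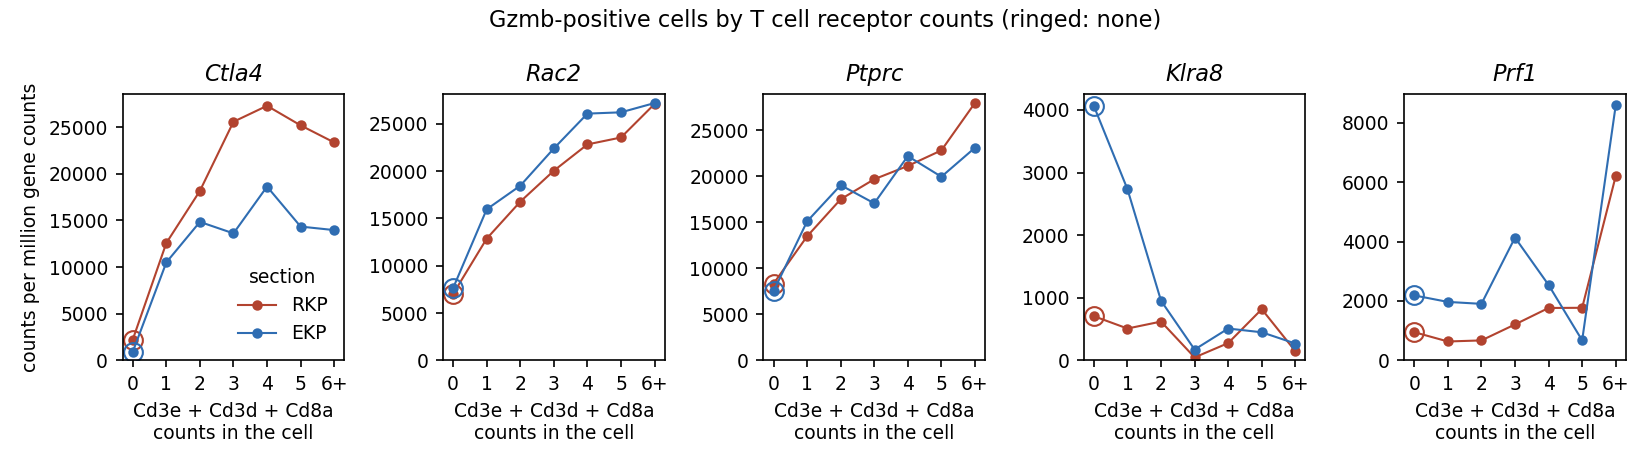
Pooled level (CPM) of Ctla4, Rac2, Ptprc, Klra8 and Prf1 in cells with 2 or more Gzmb counts, by the summed counts of Cd3e, Cd3d and Cd8a, in RKP and EKP. Each point pools the cells of 1 section, and the ring marks the cells with no receptor count. Ctla4 stood at 2219 CPM in RKP and 903 CPM in EKP in the ringed cells and at 10500 CPM or more from 1 receptor count on.

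Against all Gzmb-positive cells with receptor counts, the whole group was lower in every measured gene of the checkpoint list. At least 2-fold lower were 22 of 252 kept genes in RKP (8.73%) and 23 of 202 in EKP (11.4%), and at least 2-fold higher were 24 (9.52%) and 28 (13.9%), together 18.3% in RKP and 25.2% in EKP. Of the 16 checkpoint and regulatory T cell genes listed, 4 were measured, and all 4 were lower by more than 2-fold in both sections, with a median log2 ratio of -3.08 in RKP and -3.69 in EKP beside a median over all kept genes of 0.20 and 0.18. Pdcd1 was at 333 CPM in RKP and 208 CPM in EKP in the group, against 4809 CPM and 6569 CPM in cells with receptor counts. Lag3 had log2 ratios of -2.87 in RKP and -3.44 in EKP, and Havcr2 of -1.88 and -2.41. The receptor limit sets these groups apart, so genes that go with the receptor genes are tied to the choice of cells, and these ratios are a description. With counts scaled per cell the split was 42 higher and 18 lower in RKP and 49 and 16 in EKP, and with median-of-ratios scaling 9 and 33 in RKP and 15 and 31 in EKP. The median of all kept genes was then 0.43 and 0.50 per cell, and -0.07 and -0.11 by median of ratios.

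Outside that list, the naming rule gave Ms4a6b, Pglyrp1, Tff1 and Dnase1l3 as lower, and Ptprc and Rac2 are given beside them. The 15 macrophage and monocyte genes summed to 57964 CPM in the group in RKP and 35211 CPM in EKP, against 45724 CPM and 36324 CPM in the cells with receptor counts. Ms4a6b, a membrane gene of lymphocytes and macrophages, had log2 ratios to the cells with receptor counts of -2.06 in RKP and -2.02 in EKP. Ptprc had log2 ratios of -1.37 in RKP and -1.45 in EKP, and Pglyrp1, a peptidoglycan recognition gene, of -1.82 and -2.07. Rac2 had ratios of 0.330 (0.301 to 0.361) in RKP and 0.320 (0.276 to 0.369) in EKP. Tff1, a gastric secreted factor, was also lower (-2.77 and -3.95). Dnase1l3, a DNase gene of myeloid cells, had a log2 ratio of -0.31 in RKP and rested on 2 counts in EKP (ratio 0.0803, 0.00945 to 0.306). The genes higher than in cells with receptor counts by the naming rule were Klra8 (1.06 in RKP and 2.42 in EKP), Smad6 (1.25 and 2.39), the contractile gene Cnn1 (0.97 and 1.77), the growth factor genes Ptn (1.39 and 1.13) and Vegfa (1.29 and 1.18), Fibin (0.80 and 1.68), Mamdc2 (1.10 and 1.32) and the growth factor receptor gene Egfr (1.10 and 1.32).

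Against cells with neither Gzmb nor receptor counts, few genes were higher. At least 2-fold higher were 8 of 375 kept genes in RKP (2.13%) and 8 of 346 in EKP (2.31%), and at least 2-fold lower were 63 (16.8%) and 41 (11.8%), together 18.9% in RKP and 14.2% in EKP. With counts scaled per cell the EKP split was 17 higher and 24 lower. The ratios of Prf1 were 49.1 in RKP (37.7 to 63.3) and 77.9 in EKP (58.8 to 101.8), those of Klra8 14.5 (10.8 to 19.0) and 21.6 (17.8 to 26.0), and those of Ctla4 17.8 (15.2 to 20.8) and 15.6 (10.2 to 23.1). Satb1 followed with 7.40 (6.10 to 8.88) and 5.58 (3.96 to 7.64). The 4 genes were higher in both sections. Cyp11a1, with a ratio of 18.7 (15.8 to 22.1), Scin with 5.29 (4.28 to 6.47) and Pdcd1 with 7.02 (4.56 to 10.4) were higher in RKP and had 10, 9 and 6 counts in the EKP cells.

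The other genes that the naming rule gave as higher had smaller ratios. Log2 ratios were 0.83 in RKP and 1.66 in EKP for the carbonic anhydrase gene Car2, 0.64 and 1.29 for Fibin, 0.65 and 0.68 for Ptn, 0.17 and 1.10 for the matrix gene Aspn, 0.27 and 0.97 for Rac2, 0.38 and 0.85 for Lgr5, 0.30 and 0.89 for Smad6, and 0.56 and 0.63 for Pglyrp1. Ptprc in the whole group was close to its level in cells with neither Gzmb nor receptor counts, with ratios of 1.08 (0.997 to 1.16) in RKP and 1.31 (1.14 to 1.49) in EKP. The group as a whole was thus not richer in this leukocyte gene in RKP beyond counting error.

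The naming rule gave 12 genes as lower in both sections. The neutrophil genes Stfa2l1 and Csf3r had log2 ratios of -4.39 and -1.86 in RKP and -2.46 and -0.95 in EKP, the value for Stfa2l1 in RKP resting on 1 count (ratio 0.0475, 0.00120 to 0.265). Cstdc4, a stefin-like gene, had log2 ratios of -2.42 in RKP and -2.12 in EKP, and Mmp8, a neutrophil collagenase gene, of -1.51 and -1.29. Vwf, which marks endothelial cells, had log2 ratios of -1.34 and -1.26. The epithelial gene Serpinb5 had -0.99 and -1.73, and the interferon-induced gene Rsad2 -2.16 and -0.80. Retnla, a gene of macrophages, had -0.84 in RKP and 2 counts in EKP (ratio 0.174, 0.0210 to 0.628). Asprv1, a skin protease gene, had -1.58 in RKP and 3 counts in EKP (ratio 0.331, 0.0681 to 0.967), and the neuropeptide gene Nts -1.40 in RKP and 1 count in EKP (0.244, 0.00618 to 1.36). Ly6g6c and the tight junction gene Cldn3 rested on 3 and 2 counts in RKP (ratios 0.157, 0.0324 to 0.459, and 0.216, 0.0262 to 0.782) and on 1 count each in EKP. Many of the lower calls rest on low counts. With 20 or more counts seen or expected on both sides they numbered 27 of 252 genes in RKP and 15 of 194 in EKP.

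The remaining cells, which met none of the 3 limits, carried Rac2 at about the level of cells without Gzmb, and Ptprc at about that level in RKP and below it in EKP. Their Ptprc level was 7530 CPM in RKP and 4247 CPM in EKP, ratios to cells with neither Gzmb nor receptor counts of 0.976 (0.885 to 1.07) and 0.741 (0.604 to 0.898). Rac2 was at 5531 CPM and 4165 CPM, ratios of 0.947 (0.845 to 1.06) and 1.07 (0.869 to 1.30). Pooled over all Gzmb counts, neither gene was higher in the remaining cells beyond counting error. In RKP, Ptprc was at 6661 CPM in the 209 cells with 2 Gzmb counts and 16425 CPM in the 14 with 6 or more. Rac2 was at 5170 CPM and 8696 CPM in them. In EKP, Ptprc was at 4450 CPM in 79 such cells and 3200 CPM in 3, and Rac2 at 4213 CPM and 8000 CPM. The pooled levels thus mostly describe cells at the Gzmb limit. At least 2-fold higher were 4 of 374 kept genes in RKP (1.07%), namely Prf1 (ratio 31.4, 21.4 to 44.7), Satb1 (4.53, 3.38 to 5.96), Scin (4.02, 3.01 to 5.27) and Ctla4 (4.01, 2.66 to 5.81), and at least 2-fold lower were 51 (13.6%). In EKP 6 of 348 were at least 2-fold higher (1.72%), led by the stromal genes Fibin (2.75, 2.32 to 3.23), Aspn (2.43, 2.21 to 2.68) and Fbln5 (2.24, 1.87 to 2.66), and 45 at least 2-fold lower (12.9%). Klra8, Ctla4, Pdcd1, Cpa3 and Cyp11a1 had to be low in the remaining cells, since their limits removed the higher ones.

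Most of the remaining cells had the fewest Gzmb counts. Of the 306 in RKP, 209 had exactly 2 Gzmb counts, and of the 116 in EKP, 79 did. Over the whole group, the share of remaining cells was 80.4% in RKP and 85.9% in EKP at 2 Gzmb counts, and 14 of 44 in RKP (31.8%) and 3 of 12 in EKP at 6 or more. Klra8 cells were 1.15% in RKP and 8.70% in EKP at 2 Gzmb counts, and 9.09% and 58.3% at 6 or more, and the Cpa3/Cyp11a1 cells of RKP were 10.8% at 2 and 40.9% at 6 or more. The cells with the most Gzmb were thus mostly Klra8 cells in EKP and most often Cpa3/Cyp11a1 cells in RKP, over 44 RKP and 12 EKP cells with 6 or more counts. Median totals at 6 or more Gzmb counts were 133 gene counts in RKP and 145 in EKP, against 163.5 and 184.5 at 2 counts, so the depth was not higher where these kinds were more frequent.

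**Figure D4:**
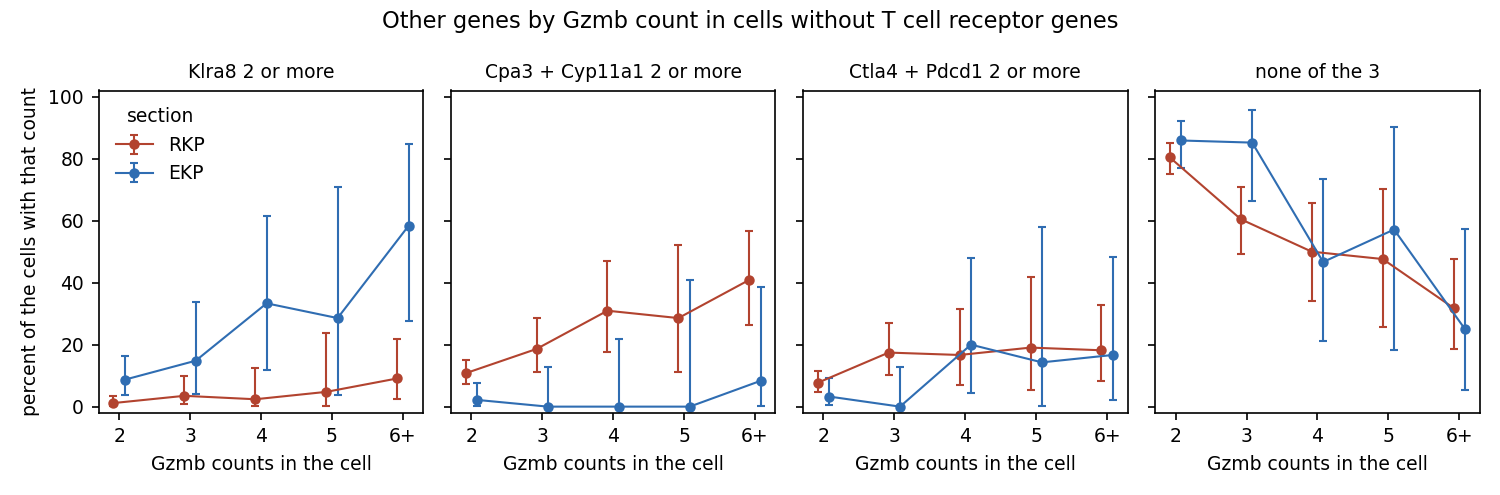
Percent of the Gzmb-positive cells without T cell receptor genes that were of each kind, by their Gzmb count (6+ pools 6 and more), in RKP and EKP. Points are shares in 1 section and bars are 95% Clopper-Pearson intervals. Cells of none of the 3 kinds made up 80.4% in RKP and 85.9% in EKP at 2 Gzmb counts, and 14 of 44 cells in RKP and 3 of 12 in EKP at 6 or more.

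Markers of other cell types were frequent in the group and in cells with neither Gzmb nor receptor counts. Of 15 measured macrophage and monocyte genes, 2 or more summed counts were found in 83.2% of the cells in RKP and 70.6% in EKP (53.2% and 32.7% thinned), against 81.0% and 70.5% of cells with neither Gzmb nor receptor counts (57.9% and 46.8% thinned). For 17 epithelial genes the shares were 67.8% and 50.3% in the group (25.8% and 12.4% thinned), against 62.0% and 49.2% (25.9% and 22.1% thinned), and for 7 fibroblast genes 71.5% and 93.5% (49.9% and 79.1% thinned), against 71.7% and 87.0% (49.2% and 69.5% thinned). For these 3 lists the thinned shares were close in RKP, and in EKP the macrophage and epithelial shares were lower and the fibroblast share higher in the group. For 7 neutrophil genes the shares were 34.4% and 43.1% in the group (10.6% and 10.5% thinned), against 39.2% and 45.9% (19.1% and 22.8% thinned). For 8 pericyte and smooth muscle genes they were 76.4% and 88.2% (36.4% and 58.2% thinned), against 75.6% and 76.0% (40.6% and 46.3% thinned). No cell of the group had 2 or more counts over the 2 measured B and plasma cell genes. The part of these transcripts in the levels above was not tested.

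The 4 checkpoint genes summed to 2 or more counts in 16.8% of the group in RKP and 12.4% in EKP (5.52% and 3.92% thinned). In cells with neither Gzmb nor receptor counts the shares were 3.29% and 3.00% (0.526% and 0.409% thinned), and in Gzmb-positive cells with receptor counts 72.6% and 74.1% (40.3% and 37.1% thinned). The group thus lay between the other 2 sets of cells in both sections. Which set it was nearer to depends on the scale, by difference or by fold. Genes that go with the receptor genes are tied to the choice of cells, so this place is a description. Klra8 was counted in 4.86% of the group in RKP and 19.0% in EKP (3.09% and 15.03% thinned), against 0.564% and 2.34% of cells with neither Gzmb nor receptor counts (0.231% and 1.30% thinned) and 3.02% and 4.80% of the Gzmb-positive cells with receptor counts (1.56% and 1.60% thinned).

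Positions of cells are not used here, and the order of cells in each file served as a partial stand-in for place. The cell after one with 2 or more Epcam counts also had 2 or more in 69.6% of cases in RKP and 70.2% in EKP, against 41.4% and 23.3% of all cells, so neighbours in the file were more alike than cells at large. Within 10 places, another Gzmb-positive cell without receptor genes was found for 24.7% of the group in RKP and 17.6% in EKP, against 3.19% and 1.56% of all cells with 40 or more counts. Another Gzmb-positive cell of any description, the same group included, was found for 54.5% and 37.3%, against 14.7% and 7.17%. A cell with 2 or more receptor counts was found for 52.8% and 33.3%, against 31.8% and 17.8%. In both sections the group thus lay nearer in the file to other Gzmb-positive cells and to cells with receptor counts than all cells did. All cells include those with 2 or more Epcam counts, which the rule leaves out. Cells with exactly 1 Gzmb count and no receptor count meet the other limits of the rule. Of these, 49.25% in RKP and 25.3% in EKP had a cell with 2 or more receptor counts within 10 places. Their intervals overlapped those of the group in RKP (46.9% to 51.6%, against 48.0% to 57.4%) and in EKP (22.7% to 28.0%, against 25.9% to 41.4%). For cells with receptor counts, the contrast with all cells was thus mostly shared by them in RKP and partly in EKP.

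The remaining cells also lay nearer in the file to other Gzmb-positive cells than all cells did. They had another Gzmb-positive cell of any description within 10 places in 55.2% of cases in RKP and 40.5% in EKP, against 40.3% and 16.1% of cells with exactly 1 Gzmb count and no receptor count. A Gzmb-positive cell with receptor counts lay within 10 places of 30.1% of the remaining cells in RKP and 18.1% in EKP. The shares were 23.3% and 9.30% of cells with exactly 1 Gzmb count and no receptor count, and 7.45% and 3.95% of all cells. In RKP, a cell with 3 or more Cpa3 counts lay within 10 places of 38.3% of the Cpa3/Cyp11a1 cells and 19.9% of the remaining cells. It did so for 12.8% of RKP cells with exactly 1 Gzmb count and no receptor count, and 5.25% of all cells. In EKP, none of the 153 cells of the group had such a cell nearby (interval up to 2.38%), against 0.541% of all cells. Cells with 3 or more Klra8 counts lay within 10 places of 2 of the 12 Klra8 cells in RKP and 2 of the 26 in EKP.

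**Figure D5:**
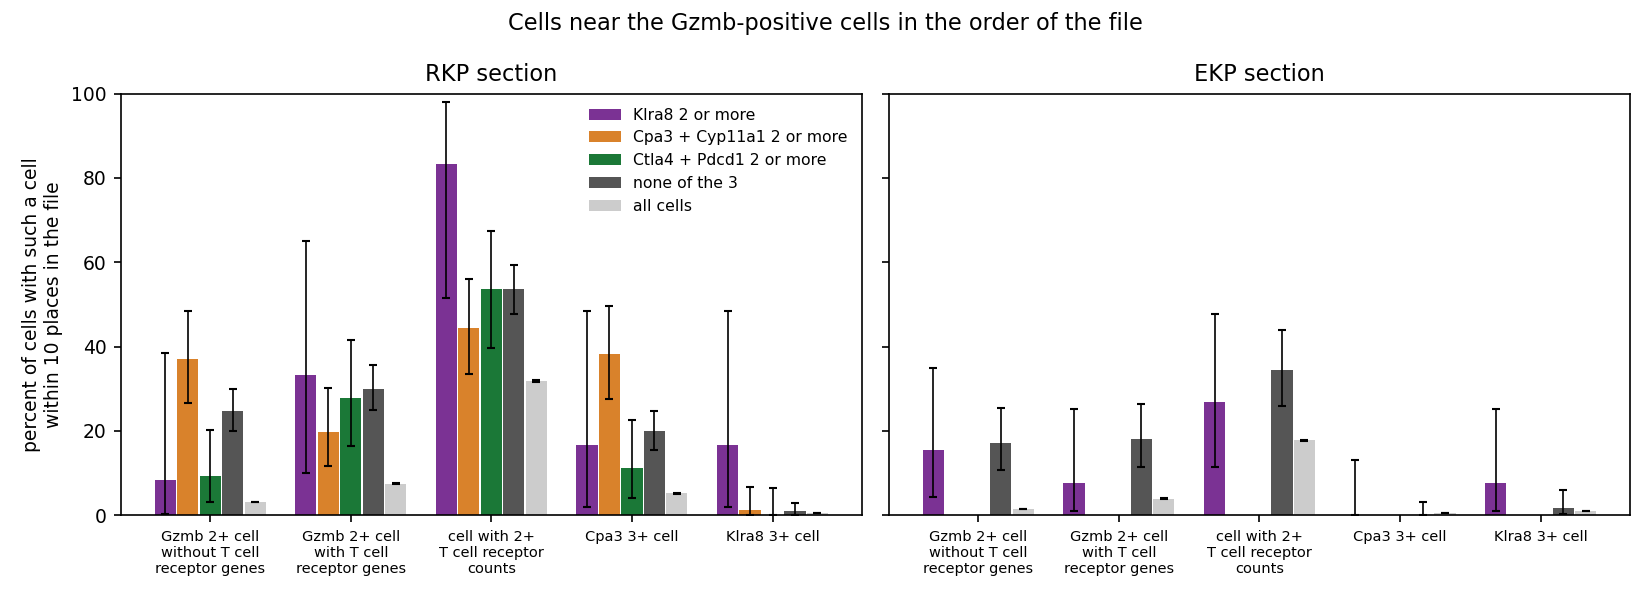
Percent of cells with a given cell within 10 places in the file, for each kind of Gzmb-positive cell without T cell receptor genes and for all cells with 40 or more counts, in RKP (left) and EKP (right). Bars are single sections, error bars are 95% Clopper-Pearson intervals, and kinds under 10 cells are left out. In RKP 38.3% of the Cpa3/Cyp11a1 cells had a cell with 3 or more Cpa3 counts nearby, against 5.25% of all cells.

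Each file was also cut into 10 stretches of equal length. A stretch held 15 to 88 of the Gzmb-positive cells without receptor genes in RKP and 6 to 24 in EKP, so they were present throughout both files. In RKP the last 3 stretches held 21, 16 and 26 of the 81 Cpa3/Cyp11a1 cells. In EKP 1 stretch held 9 of the 26 Klra8 cells.

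Between sections, the group differed in the genes that define the kinds and in others. In RKP 45 of 221 kept genes exceeded their EKP level by 2-fold or more (20.4%) and 30 lay at least 2-fold below it (13.6%), 33.9% in all, and these values compare 2 sections and not 2 conditions. Klra8 was at 705 CPM in RKP and 4063 CPM in EKP (log2 ratio -2.53), and Prf1 at 949 CPM and 2188 CPM (ratio 0.434, 0.306 to 0.617). Cyp11a1 was at 1962 CPM in RKP and 347 CPM in EKP (2.50), and Ctla4 at 2219 CPM and 903 CPM (1.30). Klra8, Cyp11a1 and Ctla4 define the kinds, so their differences repeat the counts of the kinds.

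The other named genes do not define the kinds. Higher in RKP were Sox9 (log2 ratio 3.45), a transcription factor gene of glandular epithelium, Tspan8 (3.08), Etv1 (3.03), the ceruloplasmin gene Cp (2.54) and the EGFR ligand gene Areg (2.51). Mmrn1, known from lymphatic vessels, had 24 counts in RKP and 1 in EKP (ratio 8.86, 1.45 to 364). The keratin gene Krt79 had 59 counts in RKP and none in EKP, and was at least 7.26-fold higher in RKP when the EKP cells were set at 3 counts. Lower in RKP were Ecrg4 (-2.20), the WNT antagonist gene Sfrp1 (-2.13), the fatty acid receptor gene Cd36 (-1.98), the cartilage proteoglycan gene Acan (-1.97), Sbsn (-1.95), and the matrix genes Mfap5 (-1.84) and Dpt (-1.83). In the remaining cells alone Sox9, Etv1 and Tspan8 were higher in RKP by ratios of 11.6 (5.22 to 32.1), 8.52 (4.54 to 18.1) and 6.53 (4.16 to 10.9). These genes therefore differed between the sections also in the cells that met none of the 3 limits, where 47 of 206 kept genes exceeded their EKP level by 2-fold or more (22.8%) and 24 lay at least 2-fold below it (11.7%). Cells with exactly 1 Gzmb count and no receptor count differed between the sections too. Their epithelial gene Krt8 was at 11236 CPM in RKP and 6574 CPM in EKP, and their fibroblast gene Col1a1 at 43140 CPM and 66933 CPM. Whether the named differences are particular to the group was not tested.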

How the data were processed

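Gene counts per segmented cell were used as the authors deposited them, 1 matrix per section, with cell names and features in files beside it. Per the submitters' processing notes, Seurat 4.4.0 was used. No source used here gives the segmentation, the cell positions or the genome build, and neither sequences nor coordinates are printed. Counts were summed over the cells of a group and divided by their total gene counts, times 1000000 (CPM). Genes were kept in a comparison when the side with the higher level had 20 or more counts and more than any negative control probe, and the 6 genes of the rule were set aside. Called means 2-fold or more. With 1 section per line no test was made. Negative control features stayed out of the totals. Doublets were not called. Shares were also computed after thinning each cell to 40 counts; no cell was lost, since all had 40 or more.

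The genes named were those of the NK, T cell, checkpoint and granule lists, the 12 kept genes with the largest mean log2 ratio in each direction against cells with neither Gzmb nor receptor counts, the 8 in each direction against Gzmb-positive cells with receptor counts, and the 8 in each direction between sections. The members and lists were chosen with earlier results of these data known, and the 3 kinds after their values were seen. Scripts were tested on simulated data. Tools were Python 3.11.15, NumPy 2.4.6, SciPy 1.17.1, pandas 2.3.3 and Matplotlib 3.10.9. The alternatives were other count, Gzmb, Epcam and Cpa3 limits, thinning, other scalings and filters, and other windows of file places.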

Additional observations from a re-analysis of the deposited data

Results flagged for a closer look

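Negative control codewords, which stand for no gene, gave 6 counts in the 153 Gzmb-positive cells without T cell receptor genes in EKP, above the 3 counts that a count of 0 allows. In RKP they gave 3 counts in 453 such cells, at that limit. Negative control probes gave no count in these cells in RKP and 2 in EKP.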

How the results depend on the processing

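The log2 ratio of the share of these cells in RKP over EKP, 1.03, was 0.35 with 1 or more Gzmb counts and 0.70 with no Cpa3 count. Thinning gave Prf1 in 3.97%, Ctla4 in 11.7% and Cyp11a1 in 8.61% of the cells in RKP, and Cyp11a1 in 1.31% in EKP. With no filter on low counts, genes past 2-fold numbered 92 against cells with neither Gzmb nor receptor counts in EKP, 110 in RKP and 115 in EKP against Gzmb-positive cells with receptor counts, and 142 between sections. With 20 or more counts seen or expected on both sides, chosen after seeing the data, those against cells with neither Gzmb nor receptor counts numbered 35 in RKP and 23 in EKP. Another such cell lay within 5 places for 19.6% in RKP, and within 25 places for 34.0% in RKP and 31.4% in EKP. The cause of these shifts was not tested, apart from the number of genes or places that a setting admits. The other 91 values for the main comparisons moved by less than their counting error or under 1.5 times, and none of the called values changed sign. The median of the log2 ratios of kept genes did. Against Gzmb-positive cells with receptor counts it was -0.07 in RKP and -0.11 in EKP by median of ratios, and between sections -0.03 with every cell weighted alike, beside 0.20, 0.18 and 0.15. No paired analysis was possible because each line had 1 section. Intervals cover counting error only, and segmentation error was not tested.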
